A study of Rattus norvegicus with 8 samples.

Results

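Dbp, Tef and Hlf are the mammalian PAR bZIP transcription factors, and Nfil3 is the related repressor that binds the same DNA element. All array probes named for these 4 genes were followed in the lumbar spinal cord of chronically stressed and control rats. The group holds 6 of the 30367 distinct probes on the array, 3 for Dbp and 1 each for Tef, Hlf and Nfil3, and all 6 were measured above background on all 8 arrays. The 4 genes were chosen by name with the stress and control values of these arrays already known, so their differences are given as a description, and counts of calls among them are not read as evidence.

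Male Wistar rats, 12 weeks old, were either exposed to water avoidance (WA) stress, in which the animal sits on a small platform surrounded by water for 1 h a day, on 10 consecutive days (4 rats) or were handled as controls (4 rats). The hour of the day at which tissue was taken is not given in the sources used here. Cord was collected 24 h after the last session in the stressed rats, the meninges were removed, and total RNA of the L6 to S1 segments was hybridized to 1-colour Agilent arrays. All 8 arrays were on 1 slide, with stressed rats in its first row and controls in its second, so row and group cannot be told apart.

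Each level is a log2 signal from which the 75th percentile of all probes on that array was subtracted, so that 0 is this percentile and a difference of 1 is a doubling of signal. The array of control 2 stood apart. It lay with the stressed rats on the first principal component (46.1 against 8.23 to 34.5 in stress and -56.2 to -39.4 in the other controls). The same held for the difference between 5′ and 3′ probes of the same transcripts (0.22 against 0.09 to 0.17 and -0.30 to -0.18). That difference is a median over transcripts, each first set relative to its own mean over all arrays. Schwann cell markers, summed over 6 genes, ranged from 2.77 to 6.14 in controls and from 2.73 to 4.40 in stressed rats, with the highest sum in control 1. The summed level of 4 Hox genes that mark the position along the cord was 2.35 to 2.79 in controls and 0.69 to 2.67 in stressed rats, lowest in stress 3. Hoxa10, Hoxc11 and Hoxd10, which mark lumbosacral cord, were above background on all arrays, while the forebrain marker Otx2 was above background on none. Their levels were far from even among stressed rats. Hoxa10 was at -3.46 to 0.52 there and 0.28 to 0.36 in controls, and Hoxc11 at -5.09 to 0.03 and -0.55 to -0.23. Hoxd10 was at 0.44 to 1.94 and 1.53 to 2.27, and Hoxb4 at -2.88 to -2.60 and -2.79 to -2.65. Of 73 marker genes in 9 cell type lists, 0 were lower and 3 (Mog, Pecam1 and Cdh19) were higher in stress at an adjusted p below 0.1 in limma, where over all gene symbols tested the shares were 1.29% lower and 2.34% higher. Cdh19 was well above background on only 4 arrays, the least needed to be tested. It was at -8.28 to -7.30 in controls and -6.36 to -5.72 in stressed rats, so nothing is read from its call. Summed oligodendrocyte markers were at 7.88 to 8.44 in controls and 8.02 to 8.47 in stressed rats, with 8 of 9 genes positive, and summed astrocyte markers at 7.89 to 8.21 and 8.12 to 8.37. Control 2 had the highest of these sums among controls for both cell types. Differences were positive for 6 of 8 astrocyte, 6 of 8 endothelial and 5 of 9 microglia genes. They were negative for 8 of 9 meningeal and fibroblast, 5 of 6 Schwann cell and 5 of 5 red blood cell genes. Of neuron and motor neuron genes, 7 of 13 and 4 of 6 were negative. The part of the cell type and position differences in the levels below was not tested. For control 2 and the 5′ to 3′ difference, values without that rat and with that covariate are given below. Apart from control 2, the 5′ to 3′ difference separates the groups fully. Values with the covariate therefore lean on control 2 and cannot be told apart from the standing of that array.

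The circadian clock is a feedback loop in which CLOCK and BMAL1 (Arntl) bind E-box elements, drive the Per and Cry repressors, and are then inhibited by them. The PAR bZIP factors are outputs of this loop: CLOCK and BMAL1 drive Dbp directly, and DBP, TEF and HLF bind D-box elements and activate transcription there. NFIL3 (E4BP4) binds the same D-box and represses it, and its rhythm runs opposite to that of Dbp in tissues where both cycle. Mice lacking all 3 PAR bZIP factors have seizures, with low pyridoxal phosphate in the brain.

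The probes that carry the Dbp result lie at 3 places in 1 transcript, NM_012543, at positions 1201, 1285 and 1560. Their sequences are shown because the difference between groups was not of the same size at the 3 places. Capitals mark a stop codon in the second and the polyadenylation letters AATAAA in the third, of which the last 30 bases are printed.
Dbp 1201: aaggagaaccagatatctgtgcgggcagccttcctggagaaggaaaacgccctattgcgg
Dbp 1285: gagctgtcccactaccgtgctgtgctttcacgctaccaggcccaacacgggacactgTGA
Dbp 1560: tcaacacaatcctgAATAAAtcttgagaac
In rn4, the build of the array design, they are at chr1:96178064-96178123, chr1:96178148-96178207 and chr1:96178423-96178482. Read in the frame of its first base, the probe at 1285 holds 20 codons and its last is TGA. The probe at 1201 begins 84 bases (28 codons) before it, and in the same frame holds 0 stops. The third probe starts 275 bases beyond the second. Exon annotation was not analysed here.

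Each of the other members has 1 probe of its own name, and the sequences are given so that the transcript measured can be traced. Of the Tef probe the last 30 bases are printed.
Tef 3833: gatgccggaacaccacttggttttattttt
Hlf 714: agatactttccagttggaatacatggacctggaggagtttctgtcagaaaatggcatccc
Nfil3 1444: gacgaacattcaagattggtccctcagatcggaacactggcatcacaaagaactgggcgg
They lie in rn4 at chr7:120179652-120179711 (Tef, NM_019194), chr10:78755128-78755187 on the minus strand (Hlf, XM_001081149) and chr17:18107192-18107251 (Nfil3, NM_053727).

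Dbp, the PAR bZIP factor with the best known link to the clock, was lower in every stressed rat than in every control rat at all 3 of its probes. At position 1201 the level was 1.58, 1.75, 1.86 and 1.70 in controls 1 to 4 and 1.04, 1.03, 1.24 and 1.13 in stressed rats 1 to 4. The lowest control and the highest stressed rat were 0.34 apart. The means were 1.72 ± 0.12 and 1.11 ± 0.10 (SD, n = 4), a log2 difference of -0.62 with a standard error of 0.09, which is 65.3% of the control level.

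At position 1285, in the stretch that ends with the stop codon, controls were at 2.57, 2.60, 2.77 and 2.62 and stressed rats at 2.04, 2.03, 2.16 and 2.07. The groups were 0.41 apart, the widest gap among the 6 probes. The difference was -0.57 with a standard error of 0.07, or 67.5% of control, between means of 2.64 ± 0.09 and 2.07 ± 0.06 (SD, n = 4). Control 3 was the highest control and stress 3 the highest stressed rat at both of these places.

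At position 1560, in the stretch that holds AATAAA, controls were at 3.14, 3.46, 3.32 and 3.20 and stressed rats at 2.92, 2.70, 3.11 and 2.90. The groups did not overlap here either, but the lowest control (control 1) and the highest stressed rat (stress 3) were only 0.03 apart. The difference was -0.37 with a standard error of 0.11, or 77.3% of control, between means of 3.28 ± 0.14 and 2.91 ± 0.17 (SD, n = 4). Within each rat, the level at 1201 minus that at 1560 was -1.71 to -1.46 in controls and -1.88 to -1.68 in stressed rats. The change between groups was thus smaller at the 3′ end by 0.24 on the log2 scale, and these within-rat values of the 2 groups overlapped. With the arrays' 5′ to 3′ difference in the fit, Dbp was at -0.63, -0.53 and -0.51 at the 3 places, and the change was smaller at the 3′ end by 0.12.

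Before scaling, the Dbp signal at 1201 was 7144 ± 1041 in controls and 4047 ± 431 in stressed rats (SD, n = 4), with ranges of 6183 to 8399 and 3595 to 4543. The unscaled ranges did not overlap either. The 75th percentile used for scaling was 1841 to 2335 in controls and 1751 to 1945 in stressed rats. Control 2, which stood with the stressed rats over all genes, was with the other controls at the 3 Dbp probes and was the highest of the 8 rats at 1560. As bulk tissue was used, fewer cells expressing Dbp and less Dbp RNA per cell cannot be told apart.

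**Figure D1:**
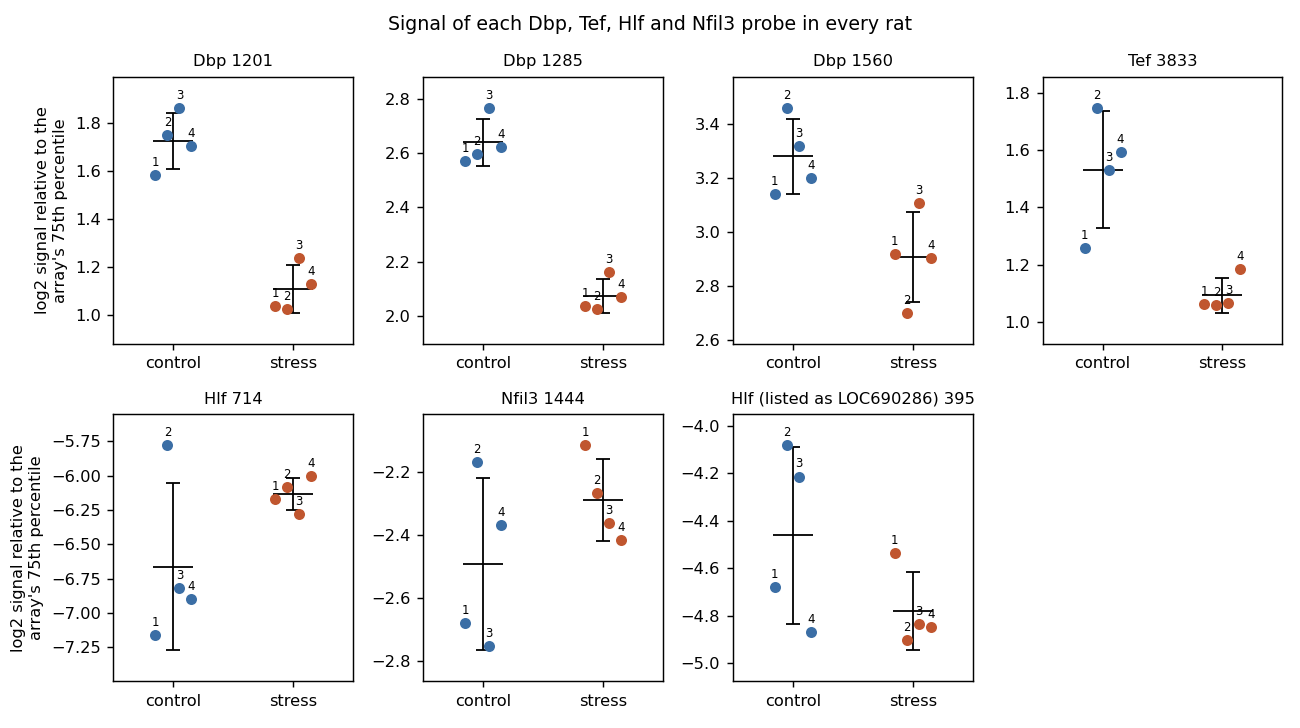
Scaled log2 signal, with the array's 75th percentile at 0 (vertical axis, own range in each panel), of every Dbp, Tef, Hlf and Nfil3 probe, and of the Hlf probe listed as LOC690286, in control (blue) and stressed (orange) rats. Digits are rat numbers, long dashes the group means and bars the SD over 4 rats. Groups do not overlap at the 3 Dbp probes and at Tef, and overlap at both Hlf probes and at Nfil3, where control 2 is the highest control.

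Tef, which is thyrotroph embryonic factor, showed the same direction as Dbp. Its probe was printed on the array 10 times, and the repeat spots of 1 array had an SD of 0.02 to 0.07. Controls were at 1.26, 1.75, 1.53 and 1.59, and stressed rats at 1.06, 1.06, 1.06 and 1.18. All stressed rats were below all controls, with control 1 only 0.07 above stress 4 and control 2 the highest of all. The means were 1.53 ± 0.21 and 1.09 ± 0.06 (SD, n = 4) and the difference -0.44 with a standard error of 0.11, or 73.7% of the control level. Unscaled signals were 5115 to 7054 in controls and 3657 to 4418 in stressed rats.

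In the fit over all 23678 tested probes, the 2 upstream Dbp probes passed an adjusted p below 0.1, and also one below 0.05, as lower in stress. The Dbp probe at 1560, Tef, Hlf and Nfil3 did not pass at 0.1. Of all tested probes, 0.971% were lower at 0.1 and 0.0465% at 0.05, while 3.74% passed at 0.1 in either direction. At 4 of the 6 member probes all stressed rats were below all controls, a pattern found in 5.44% of all tested probes. As the members were picked from this same contrast, nothing is read from these counts. With slide column, which carries the replicate number, as a block in the fit, 0 of all tested probes passed at 0.1, so that no call of a member or of a listed gene below held under it. Of all tested probes, 178 (0.752%) had a more negative difference than Dbp at 1201 and 484 (2.04%) a more negative one than Tef, where the median over all probes was 0.06.

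Hlf, hepatic leukemia factor, gave no direction that held across its probes. The probe named Hlf was dim, with an unscaled signal of 22.1 ± 7.97 in controls and 26.7 ± 2.76 in stressed rats (SD, n = 4). Its levels were -7.16, -5.78, -6.82 and -6.90 in controls and -6.17, -6.09, -6.28 and -6.00 in stressed rats. Of the 8 rats, control 2 was the highest, and the other controls were all below the stressed rats. The means were -6.66 ± 0.61 and -6.13 ± 0.12 (SD, n = 4), with a difference of 0.53 and a standard error of 0.28. Without control 2 the difference was 0.82, and with the arrays' 5′ to 3′ difference added to the fit it was -0.11.

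RefSeq now gives the gene listed on the array as LOC690286 the name Hlf, so its probe at position 395 of XM_001073964 (chr10:78756446-78756505 in rn4) is a further view of Hlf outside the name rule.
Hlf, listed as LOC690286: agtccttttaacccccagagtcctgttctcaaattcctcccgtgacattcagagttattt
Controls were at -4.68, -4.08, -4.21 and -4.87 there and stressed rats at -4.53, -4.90, -4.83 and -4.85. The groups overlapped, with controls 2 and 3 above all stressed rats. The difference was -0.32 with a standard error of 0.19, opposite in sign to that of the probe named Hlf. It was -0.19 without control 2. With the 5′ to 3′ covariate it was -0.56, of the same sign as the other Hlf probe there. A further probe, described on the array as hepatic leukemia factor and placed at position 372 of ENSRNOT00000055664, was well above background in control 2 and in none of the other 7 rats, so that no difference was computed. The 2 measured views of Hlf thus differed in sign, and at each of them the groups overlapped.

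Nfil3, the D-box repressor, had no gap between the groups in either direction. Controls were at -2.68, -2.17, -2.75 and -2.37 and stressed rats at -2.11, -2.26, -2.36 and -2.41. The ranges overlapped, and control 2 was above all stressed rats but 1. The means were -2.49 ± 0.27 and -2.29 ± 0.13 (SD, n = 4), a difference of 0.20 with a standard error of 0.14. The 2 spots of this probe differed by 0.74 on the log2 scale in control 2 and by at most 0.14 in the other rats, so that the height of its mean in control 2 comes from 1 of the 2 spots. Unscaled, the signal was 388 ± 59 in controls and 383 ± 17 in stressed rats (SD, n = 4), so the positive difference appeared with the scaling. Without control 2 it was 0.31, and with the 5′ to 3′ covariate -0.09.

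**Figure D2:**
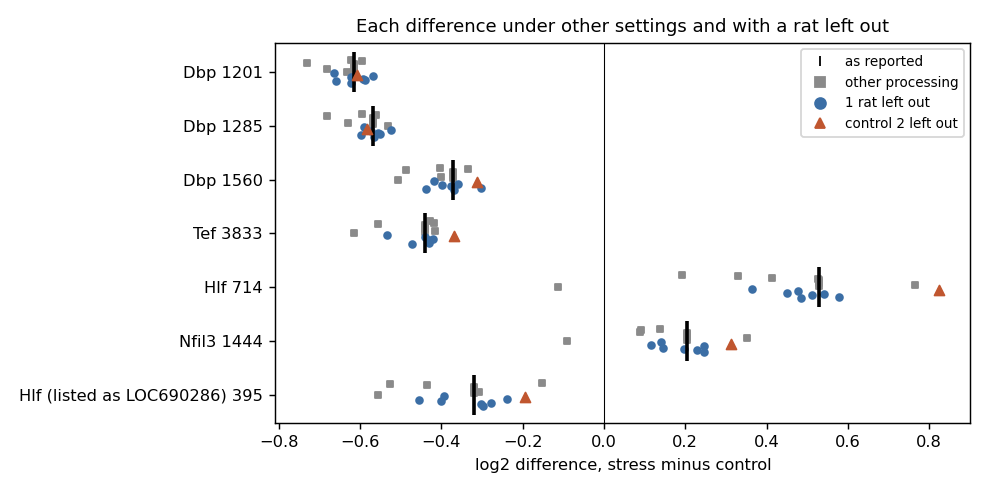
Log2 difference between stressed and control rats (horizontal axis) for each probe under 18 other settings. Black strokes are the values as reported, grey squares other ways of processing, blue circles 1 rat left out and orange triangles control 2 left out. Dbp, Tef and the Hlf probe listed as LOC690286 stay below 0 throughout, and Hlf 714 and Nfil3 cross 0 under 1 setting each.

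The Dbp difference was -0.73 to -0.57 at 1201, -0.68 to -0.52 at 1285 and -0.51 to -0.30 at 1560 over these 18 settings, and that of Tef was -0.61 to -0.37. All 4 were negative in 18 of 18. Leaving out a rat or weighting the arrays could not turn these signs, as the groups did not overlap. Other filters, the value table, trend with robust estimation and the replicate block left the differences as they were or nearly so. The count of signs is therefore not read as support. Hlf at 714 spanned -0.11 to 0.82 and Nfil3 -0.09 to 0.35. The number of member probes called moved more than their differences. It was 6 without control 2, a fit that called 10014 probes (42.7% of those tested), and 0 to 2 without any 1 of the other 7 rats, fits that called 0 to 76 probes.

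Core clock genes, the loop that drives the PAR bZIP factors, were counted from a list of 21 with the brightest probe standing for each gene. All gene lists were chosen with earlier results of these data known, so their counts and p-values are also given as a description. Of the 21, 2 fell, 0 rose and 19 did not pass at an adjusted p of 0.1 in limma. For the brightest probe of all 13268 gene symbols tested the shares were 1.29% lower and 2.34% higher. At an unadjusted p of 0.05, 2 were lower and 5 higher, against 19.8% of all gene symbols in either direction. The list's median difference was 0.24, against 0.02 over all gene symbols.

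Per2, a repressor in the loop whose RefSeq promoter holds a D-box, fell by 0.49 with a standard error of 0.10 (limma, adjusted p = 0.0765). Controls were at -2.80, -3.21, -2.81 and -2.85 and the stressed rats lay together between -3.43 and -3.40. Control 2 was the lowest control and still above all stressed rats. Timeless, which acts at replication forks and whose role in the mammalian clock is less settled, fell by 0.29 with a standard error of 0.07 (limma, adjusted p = 0.0957). Both were lower in 4 of 4 stressed rats than in any control. Neither call held when any 1 rat other than control 2 was left out, and over 18 settings Per2 ranged from -0.62 to -0.27 and Timeless from -0.49 to -0.11. Under normexp background correction neither passed.

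The largest differences in the list were not called. Per1 was at -0.92, -3.06, -3.44 and -4.61 in controls and -4.24, -3.94, -2.87 and -4.27 in stressed rats, a difference of -0.82 with a standard error of 0.73 (limma, adjusted p = 0.537). Its highest value was in control 1, the rat with the highest Schwann cell sum, and without that rat the difference was -0.13. Bhlhe40, a repressor of CLOCK and BMAL1 targets, was at -4.93, -2.21, -4.77 and -4.42 in controls and between -2.85 and -2.34 in stressed rats. Its difference was 1.45 with a standard error of 0.56 (limma, adjusted p = 0.214), and control 2 was above all stressed rats. Without control 2 the Bhlhe40 difference was 2.07 and passed (limma, adjusted p = 0.000631), with the 5′ to 3′ covariate it was 0.01 (limma, adjusted p = 0.985) and with normexp 0.87 (limma, adjusted p = 0.348). Arntl, the gene of BMAL1, differed by 0.24 with overlapping groups (limma, adjusted p = 0.265) and by 0.65 at its other probe. Npas2, a relative of CLOCK, differed by 0.51 with all stressed rats above all controls (limma, adjusted p = 0.127) and by 0.86 at its other probe. Nr1d1, the gene of REV-ERB alpha, differed by -0.34, also with overlap (limma, adjusted p = 0.335). Nr1d2, its relative, differed by 0.37, Cry1 by -0.15, Cry2 by 0.40, Per3 by -0.02 and Bhlhe41 by 0.68. All of these overlapped between groups and did not pass. Of the 21 genes, 10 differences were negative and 11 positive, so no common direction of the loop is read from the named genes.

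**Figure D3:**
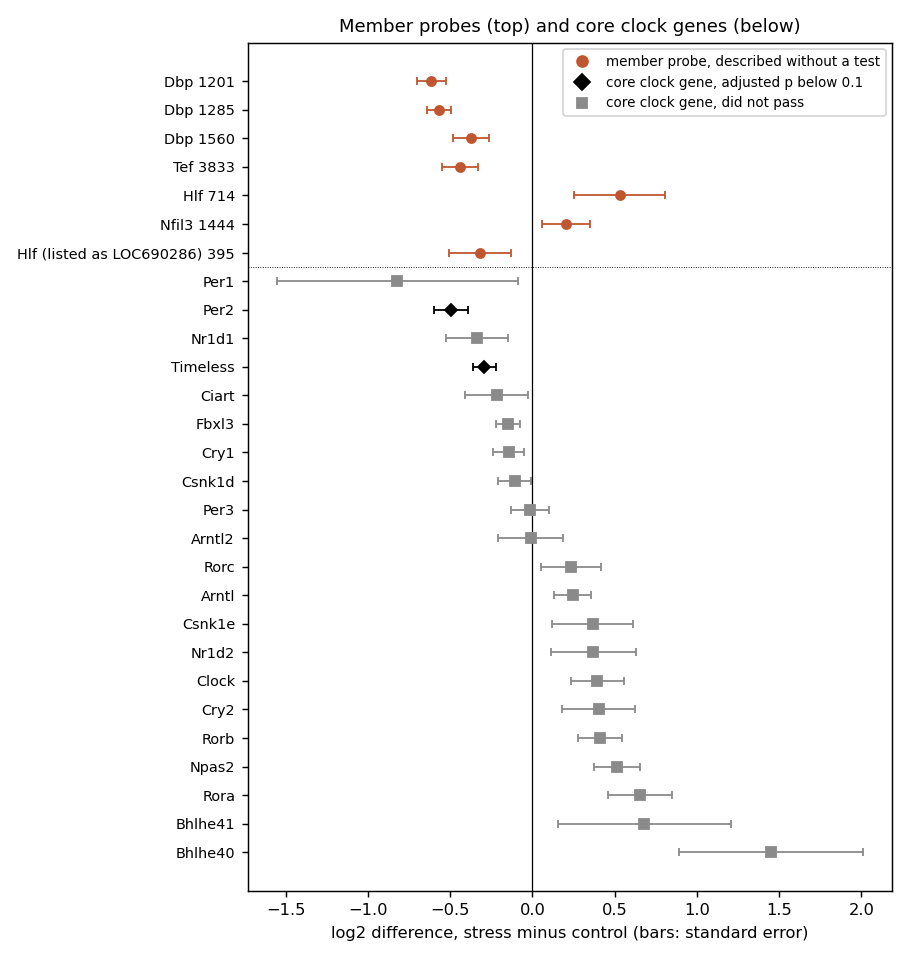
Log2 difference between stressed and control rats (horizontal axis, bars are standard errors, 4 rats a group) for the member probes (orange circles, described without a test) and for 21 core clock genes ordered by their difference. Black diamonds are the 2 core clock genes with an adjusted p below 0.1, Per2 and Timeless, and grey squares the 19 that did not pass.

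Promoters from RefSeq, 250 bases before to 50 after the start in GRCr8, were searched on both strands for the E-box CACGTG and for the D-box as TTATGTAA or TTACGTAA. The table holds 3 of the 4 members, all but Hlf. Tef held 1 E-box 198 bases before the start, and Dbp and Nfil3 held neither motif in this window. Among all 33469 promoters 6.42% held the E-box and 1.01% the D-box. Of 15 core clock promoters found, 4 held an E-box and 1, that of Per2, held a D-box, 192 bases before the start. The promoters of the 2 members with lower levels and of Per2 are shown, with matches in capitals, at chr1:105312006-105312305 (Dbp, plus strand), chr7:115206577-115206876 (Tef, plus strand) and chr9:99496944-99497243 (Per2, minus strand).
Dbp: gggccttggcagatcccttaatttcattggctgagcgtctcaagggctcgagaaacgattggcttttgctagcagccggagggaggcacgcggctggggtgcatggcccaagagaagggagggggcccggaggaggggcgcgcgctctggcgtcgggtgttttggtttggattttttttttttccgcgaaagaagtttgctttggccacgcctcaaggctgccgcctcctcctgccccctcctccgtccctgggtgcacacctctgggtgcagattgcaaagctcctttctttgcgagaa
Tef: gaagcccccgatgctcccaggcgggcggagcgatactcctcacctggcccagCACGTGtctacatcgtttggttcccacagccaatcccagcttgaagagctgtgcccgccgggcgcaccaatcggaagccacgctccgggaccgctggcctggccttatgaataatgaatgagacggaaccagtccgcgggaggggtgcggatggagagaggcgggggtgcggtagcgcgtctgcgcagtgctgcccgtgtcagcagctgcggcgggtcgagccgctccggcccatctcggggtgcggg
Per2: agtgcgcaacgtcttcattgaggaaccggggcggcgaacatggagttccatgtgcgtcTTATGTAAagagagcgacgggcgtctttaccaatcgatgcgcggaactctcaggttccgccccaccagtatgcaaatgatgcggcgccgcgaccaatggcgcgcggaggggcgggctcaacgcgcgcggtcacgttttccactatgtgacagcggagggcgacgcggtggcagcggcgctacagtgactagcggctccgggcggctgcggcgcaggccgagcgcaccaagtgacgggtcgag
A match is a run of letters, and no binding was measured.

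Known or proposed targets and outputs of the PAR bZIP factors and the clock were taken as a list of 27, of which 25 were tested. Only Cirbp passed, and it rose by 2.36 with a standard error of 0.48 (limma, adjusted p = 0.0722). Over all gene symbols 2.34% were called higher and 1.29% lower, so nothing about the list is read from this count. Cirbp encodes a cold-inducible RNA-binding protein. Controls were at -3.53, -1.14, -3.22 and -3.01 and stressed rats between -0.54 and -0.25, so that control 2 was the control nearest to the stressed rats. Over the 18 settings the Cirbp difference was 1.17 to 2.89. It was called in 1 of 8 fits with 1 rat left out, the one without control 2.

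Pdxk, the pyridoxal kinase gene through which the PAR bZIP factors act on brain pyridoxal phosphate, did not pass, with a difference of 0.34 and overlapping groups (limma, adjusted p = 0.316). Wee1, a cell cycle kinase under clock control, differed by -0.01 with overlapping groups. Tspan4 differed by -0.29, with all stressed rats below all controls, and did not pass (limma, adjusted p = 0.132). Other differences of the list that were large without passing were those of Wdr82 at 0.97 and Ppara at 0.67, both with overlap. With the 5′ to 3′ covariate they were -0.18 and 0.18, with normexp 0.30 and 0.32, and without control 2 1.47 and 0.87. The list's median was 0.04, against 0.02 over all gene symbols.

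The C/EBP genes encode bZIP relatives that can share DNA sites with the PAR bZIP factors. Of 5 tested, 0 passed at an adjusted p of 0.1 in limma, and at an unadjusted p of 0.05 only Cebpd was higher, by 0.30 with a standard error of 0.13. Over all gene symbols the shares were 2.34% higher and 1.29% lower at the adjusted threshold, and 19.8% in either direction at the unadjusted one. The list's median was -0.01. Ddit3 differed by -0.10. Cebpa differed by 0.52, which was 0.81 without control 2, 0.10 without control 3 and -0.21 with the 5′ to 3′ covariate. Cebpb differed by -0.05, which was -0.14 without control 2 and 0.16 with that covariate.

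Glucocorticoid-responsive genes were counted because corticosterone is released in stress and resets clock genes. Of 18 tested, 2 rose and 0 fell, with a median of 0.04, beside 2.34% higher and 1.29% lower over all gene symbols. At an unadjusted p of 0.05 in limma, 5 were higher and 1 lower, against 19.8% of all gene symbols in either direction. Sgk1, a kinase induced by corticosteroids, rose by 1.33 with a standard error of 0.28 (limma, adjusted p = 0.0772), and Zbtb16, a steroid-induced zinc finger gene, by 0.50 with a standard error of 0.12 (limma, adjusted p = 0.0982). Sgk1 was at -2.15, -1.37, -2.38 and -1.39 in controls and -0.28, -0.48, -0.24 and -0.98 in stressed rats. Fkbp5, a chaperone that is also induced by corticosteroids, differed by -0.21 the other way, with all stressed rats below all controls. It did not pass (limma, adjusted p = 0.152). Pdk4, at 1.22, did not pass either (limma, adjusted p = 0.111), and was at 0.30 with normexp. Over the 18 settings Zbtb16 was called in 5, between 0.26 and 0.57, and Sgk1 in 9, between 0.84 and 1.56. With the 5′ to 3′ covariate neither passed, with Sgk1 at 0.84 (limma, adjusted p = 0.148) and Zbtb16 at 0.37 (limma, adjusted p = 0.203). Sgk1 and Zbtb16 were called in 1 of 8 fits with 1 rat left out, the one without control 2.

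The pattern of the brightest Dbp probe, at 1560, over the 8 rats was set against all other named genes by Pearson correlation, as a description. Its own transcript's other probes correlated with it at 0.902 (1201) and 0.856 (1285), and Tef at 0.852. Hlf at 714 gave -0.228, the Hlf probe listed as LOC690286 0.727 and Nfil3 -0.264. After each group's mean was taken out, Dbp gave 0.738 at 1201 and 0.494 at 1285, and Tef 0.519. Hlf gave 0.495 at 714 and 0.589 at the probe listed as LOC690286, and Nfil3 0.246, so that the sign of Hlf at 714 and of Nfil3 turned.

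Most like Dbp were Rpp21 (a ribonuclease P subunit, 0.967), Tifab (0.967), Galr2 (a galanin receptor, 0.958), Rgl2 (0.953) and Ccdc125 (0.951). Least like it were Nat5 (-0.978), Trim16 (-0.976), Bxdc5 (-0.973), Dnaja1 (a DnaJ co-chaperone, -0.968) and Psmd14 (a proteasome subunit, -0.961). The 8 rats share 1 slide, and the correlations hold both the group difference and the spread within groups. Ranked by Spearman correlation, 3 of the 5 most like and 1 of the 5 least like genes were again in the first 5. Without control 2 it was 0 and 1, though these 10 genes still had correlations of 0.923 to 0.962 or -0.968 to -0.946.

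**Figure D4:**
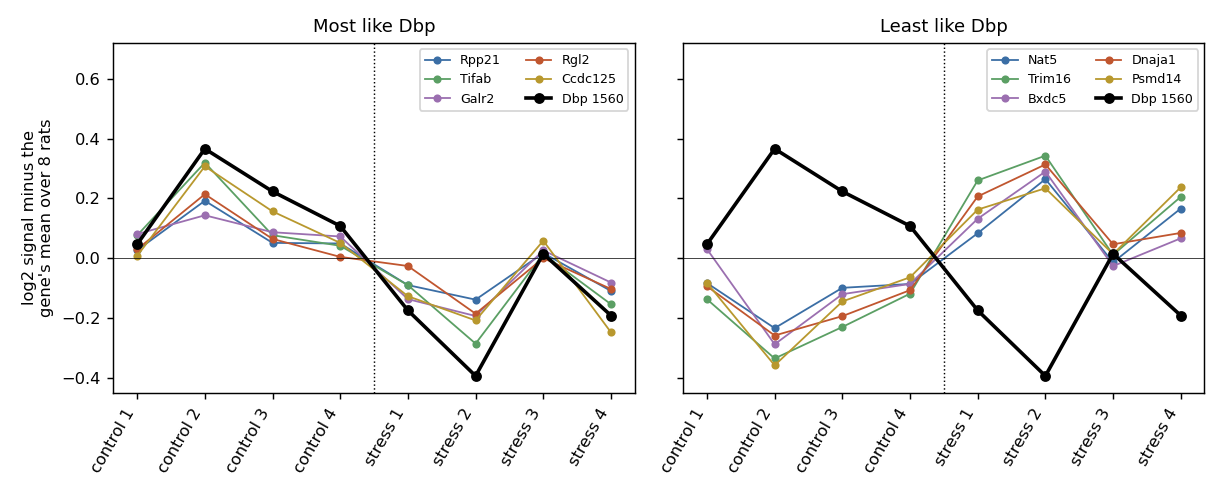
Log2 signal of the Dbp probe at 1560 (black) and of the 5 genes most like (left) and least like (right) it, each minus its mean over the 8 rats, in every rat (horizontal axis). Lines join the rats only to show the pattern, and the dotted line parts controls from stressed rats. Control 2 and stress 2 are the extremes for Dbp, and stress 3 lies closest to the controls.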

How the data were processed

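Cord RNA of 4 stressed and 4 control rats was hybridized to 1-colour Agilent rat arrays. The authors deposited, for each array, Agilent Feature Extraction 10.7.3.1 files with the processed signal intensity of each spot, and a value table that equals these intensities rounded. Both are linear, and the log2 scale was taken here. Per the sources used here the authors called genes with dChip.

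Control spots and flagged outlier spots were left out, log2 processed signal was set relative to each array's 75th percentile, and spots of a probe were averaged. Of 30367 probes, the 23678 with at least 4 of 8 arrays well above background were tested with limma 3.58.1 (lmFit and eBayes, no covariate) in R 4.3.3, with Benjamini-Hochberg adjustment over all tested probes and a threshold of 0.1 (0.05 as a stricter one). The number of arrays limits the precision. Titles name replicates, and p-values measure the spread between these rats. The script was tested on simulated data.

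The members and all gene lists were chosen with earlier results of these data known. Named from each list were genes past 0.1 and, up to 4 in all, those with the largest difference, plus the 5 genes most and 5 least like Dbp. Pdxk, Wee1, Tspan4, Arntl, Npas2, Nr1d1, Nr1d2, Cry1, Cry2, Per3, Bhlhe41 and Fkbp5 were added after their values were seen. Cell type lists are given by counts, called genes and sums only, and Hoxa10, Hoxc11, Hoxd10 and Otx2 are named as position markers. Alternatives were normexp background correction (offset 50), quantile and median scaling, the value table, other filters on dim probes, trend with robust estimation, array weights, a replicate block, a 5′ to 3′ covariate (from 1887 transcripts with probes at least 300 bases apart) and each rat left out. Replicates 1 to 4 of each group lay in slide columns 1 to 4, so the replicate block is also a block for slide column. Probe positions are those of the array design (rn4). No genome of that build was used here.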

Additional observations from a re-analysis of the deposited data

Results flagged for a closer look

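Among 64 groups of 4 rats, examined for member probes and for genes named above, 7 held a rat far from the other 3. There the gap to the nearest rat over the group's range was above Dixon's critical value for 4 samples. For independent groups chance would give about 1 in 20, or 3.2 groups. These groups share the same 8 rats, and some genes were picked by their correlation with Dbp. The count of 7 is therefore not read against that rate. For Tef, stress 4 stood apart (gap ratio 0.961) at 1.18 against 1.06 in each of the other stressed rats, which is the stressed rat nearest to the controls. The other 6 were all control 2. The Hlf probe at 372 (0.917) was at -7.01 there against -9.75 to -9.52. Per2 (0.864) was at -3.21 against -2.85 to -2.80, nearer to the stressed rats than the other controls were. Cebpb (0.887) was at -0.84 against -0.49 to -0.44. Rpp21 (0.851) and Tifab (0.873), chosen as most like Dbp, were at 1.73 against 1.56 to 1.59 and -2.40 against -2.68 to -2.65. Nat5 (0.894), chosen as least like Dbp, was at -0.58 against -0.44 to -0.43. At Dbp and Tef themselves control 2 was not far from the other controls by this measure.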

How the results depend on the processing

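The sign of Dbp, Tef and the Hlf probe listed as LOC690286 was the same under all 18 alternatives. Several of these leave a difference unchanged. At Dbp and Tef, where the groups did not overlap, leaving out a rat could not turn the sign. With each array scaled to its median, which moved the median of all probes from 0.06 to -0.05, Dbp was -0.73 at 1201 and -0.68 at 1285 and 4 member probes were called in place of 2. That scaling called 1266 probes over the whole array, against 885 in the main fit. The 5′ to 3′ covariate gave Tef -0.61, Hlf -0.11 and Nfil3 -0.092, with 4 member probes, 5 core clock, 3 target and 1 glucocorticoid-responsive gene called. Over the whole array that fit called 2393 probes. Array weights, which gave control 2 a weight of 0.11, called 6 member probes and 15 core clock, 14 target, 8 glucocorticoid-responsive and 3 C/EBP genes. They called 11983 probes over the whole array, of 23678 tested in the main fit, so nothing about the lists is read from these counts. No filter called 3 target and 4 glucocorticoid-responsive genes, normexp 0 core clock and 1 glucocorticoid-responsive gene, and trend with robust estimation 4 member probes and 1 glucocorticoid-responsive gene. Over the whole array they called 3010, 215 and 1295 probes in that order. With 1 rat left out, 0 to 6 member probes, 0 to 13 core clock, 0 to 11 target and 0 to 9 glucocorticoid-responsive genes were called. All the highest counts were without control 2, where 42.7% of all tested probes were called. Under a replicate block 0 member probes and 0 genes of any list were called, with the same differences. Same-numbered rats had correlations of -0.09 to 0.31 in their deviations, and 1 of the 4 numbers was its own best partner, so they were not treated as pairs. Calls over all probes ran from 0 to 11983, and the cause was not tested. Signal near background limits Hlf.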
